A study of Homo sapiens with 18 samples.

Results

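The genes described here carry out or regulate glycolysis, or are known to be switched on in low oxygen by hypoxia-inducible factor (HIF). A list of 37 such genes was followed over all arrays of a study of FOXA1 in LNCaP, a human prostate cancer cell line that depends on androgen. A listed gene was measured if a probe was detected (detection p-value under 0.01) on at least 2 arrays, and its brightest such probe was used. By that rule 35 of the 37 genes were measured, among 11590 genes in all: both transporters, all 16 enzymes, 3 of 4 regulators and 14 of 15 HIF targets. PDK1, the kinase that shuts off pyruvate dehydrogenase, was detected on 0 of 18 arrays, and CA9, a carbonic anhydrase, had no named probe and was not analysed here.

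The study has 9 constructs under 2 treatments, with 1 Illumina HumanHT-12 V4 bead array per condition, so 18 arrays in all. FOXA1 is a forkhead transcription factor that opens chromatin for other factors. In 7 of the constructs a short hairpin against FOXA1 was combined with an insert other than GFP. Among them were the FOXA1 mutants D226N, M253K and F266S, whose residues lie in the DNA-binding forkhead domain. The FOXA1 mutants G87R and L388M, whose residues lie outside it, and wild-type FOXA1 (WT) were others. The last was named FENG, which the labels do not define. The knockdown line carried the hairpin with GFP, and the control line carried the empty pGIPZ vector with GFP. Cells spent 3 days in medium whose 5% serum had been stripped with charcoal, and then received 1 nM R1881, a synthetic androgen, or ethanol for 24 hours. All lines therefore shared the LNCaP background and the hormone withdrawal, and every FOXA1 protein was tested in cells that also carried the hairpin. Neither separate cultures nor the number of clones in a line are named in the labels. All p-values therefore measure only the spread between these arrays, which may be technical. In the additive fit of construct and treatment, that spread also holds any R1881 response that differs between lines.

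Glycolysis turns glucose into pyruvate, and lactate dehydrogenase turns pyruvate into lactate. Glucose enters through transporters of the SLC2A family, is trapped by hexokinases, and is committed to the pathway by phosphofructokinase, whose activity follows a signalling sugar made and broken down by the PFKFB enzymes. HIF is a pair of proteins whose alpha subunit is destroyed in normal oxygen and which, when stable, binds a short DNA motif beside many of these genes. In prostate cancer cells androgens are known to raise glucose uptake and the transcripts of several glycolytic genes.

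Promoters of 5 genes that carry the results below are shown, since these genes moved together with the state of FOXA1 or with R1881. Each run is the 250 bases before a listed start of the gene, 5′ to 3′ on the gene's strand, from RefSeq (GRCh38.p14). For PFKFB4 that start lies inside the gene's full span (chr3:48517684-48563136). Its run is therefore not the stretch before the outermost start. The capitals mark matches to the HIF core motif, spelled ACGTG or GCGTG and searched on both strands, where it reads CACGT or CACGC (overlapping matches of opposite strands count once each). PFKFB3 lies at chr10:6144671-6144920 (plus strand), PFKFB4 at chr3:48556804-48557053 (minus strand), COXFA4L2 at chr12:57240763-57241012 (minus strand), ANKRD37 at chr4:185396591-185396840 (plus strand) and INSIG2 at chr2:118088221-118088470 (plus strand).
PFKFB3: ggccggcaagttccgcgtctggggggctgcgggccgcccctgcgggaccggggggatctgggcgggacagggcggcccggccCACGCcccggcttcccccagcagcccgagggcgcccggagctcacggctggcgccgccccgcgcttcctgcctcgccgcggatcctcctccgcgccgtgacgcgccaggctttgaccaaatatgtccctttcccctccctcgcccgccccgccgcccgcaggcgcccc
PFKFB4: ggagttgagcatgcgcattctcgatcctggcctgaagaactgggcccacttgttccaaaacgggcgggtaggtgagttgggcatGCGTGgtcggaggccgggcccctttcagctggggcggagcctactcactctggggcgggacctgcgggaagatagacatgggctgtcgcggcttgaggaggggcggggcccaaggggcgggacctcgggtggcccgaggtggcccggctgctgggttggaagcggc
COXFA4L2: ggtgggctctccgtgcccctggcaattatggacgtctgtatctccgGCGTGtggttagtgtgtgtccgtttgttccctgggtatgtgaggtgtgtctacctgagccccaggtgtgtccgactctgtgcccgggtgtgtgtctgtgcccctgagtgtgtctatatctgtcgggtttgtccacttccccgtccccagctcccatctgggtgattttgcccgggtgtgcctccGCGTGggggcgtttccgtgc
ANKRD37: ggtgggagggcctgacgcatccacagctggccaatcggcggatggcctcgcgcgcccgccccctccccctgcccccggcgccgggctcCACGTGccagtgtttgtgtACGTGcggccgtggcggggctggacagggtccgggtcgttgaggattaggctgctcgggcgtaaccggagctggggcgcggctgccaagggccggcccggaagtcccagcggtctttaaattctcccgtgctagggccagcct
INSIG2: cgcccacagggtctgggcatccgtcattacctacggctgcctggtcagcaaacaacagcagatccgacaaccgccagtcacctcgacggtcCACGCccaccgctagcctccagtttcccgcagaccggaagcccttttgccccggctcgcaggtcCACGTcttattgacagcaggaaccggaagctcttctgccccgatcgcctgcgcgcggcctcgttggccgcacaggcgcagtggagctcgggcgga

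The core motif was in the 250 bases of 21 of 32 listed genes with a promoter in the table (65.6%), against 43.1% of all 27305 promoters of that length. The list includes genes chosen as known HIF targets, and base composition was not matched. The higher share is therefore no independent support for HIF control of these genes. BNIP3 held 6 matches, ALDOC and LDHA 5 each, and ANKRD37 held 3, of which a pair overlap in CACGTG. A forkhead motif, spelled TGTTTAC or TGTTTGC and searched on both strands, was in 1 of the 32 (3.12%), against 6.05% of all promoters. That gene was INSIG2. A match is a description of the letters and not a binding site. The promoters of SLC2A3, PFKFB2, BNIP3L, VEGFA and HILPDA were not used here.

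On every array 15855 to 17278 probes were detected, and mean raw signals lay between 233.1 and 303.9. The FOXA1 probe read 11.07 with R1881 and 11.15 with ethanol in knockdown cells, against 11.72 and 11.92 in control cells, a difference of -0.71 ± 0.12 on the log2 scale (SE, n = 2 arrays each, limma adjusted p = 0.00287). On the arrays with FOXA1 put back it read 10.60 to 11.09, but which stretch of the transcript it covers is unknown here, and it does not check the added FOXA1. The luminal markers KRT8 and FOLH1 were detected on 18 arrays, as was KLK2, and KLK3 and KRT18 on 17. The basal markers KRT5 and KRT14, the neuroendocrine markers CHGA and SYP, and COL1A2, PECAM1 and PTPRC were detected on 0 arrays, while COL1A1 was detected on 12 at 4.37 to 5.35. TP63 was not analysed here. ENO2, a listed glycolytic enzyme that also serves as a neuroendocrine marker, was detected on 18 arrays.

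Some arrays stood apart. The M253K ethanol array was the lowest or highest of its 9 for 53.3% of all genes and the FENG R1881 array for 39.2%, where 22.2% would fall to each array if all were alike. On the M253K ethanol array PGAM1 (8.02), PGK1 (10.27) and TPI1 (10.69) were the lowest of all 18 arrays, while PKM (11.06), ENO1 (13.36) and PFKL (8.68) were the highest. The G87R ethanol array, which earlier results of these data had grouped with them, was not apart by this measure, at 22.6%, and was the highest of its 9 for 15 of the 35 members. The control R1881 array, at 32%, stayed in. Counts are given with all arrays, without the M253K ethanol and FENG R1881 arrays, and without all 3, and the choice to keep the G87R array in the first of these subsets was made after the data were seen. The part of any array's preparation in the results was not tested.

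**Figure D1:**
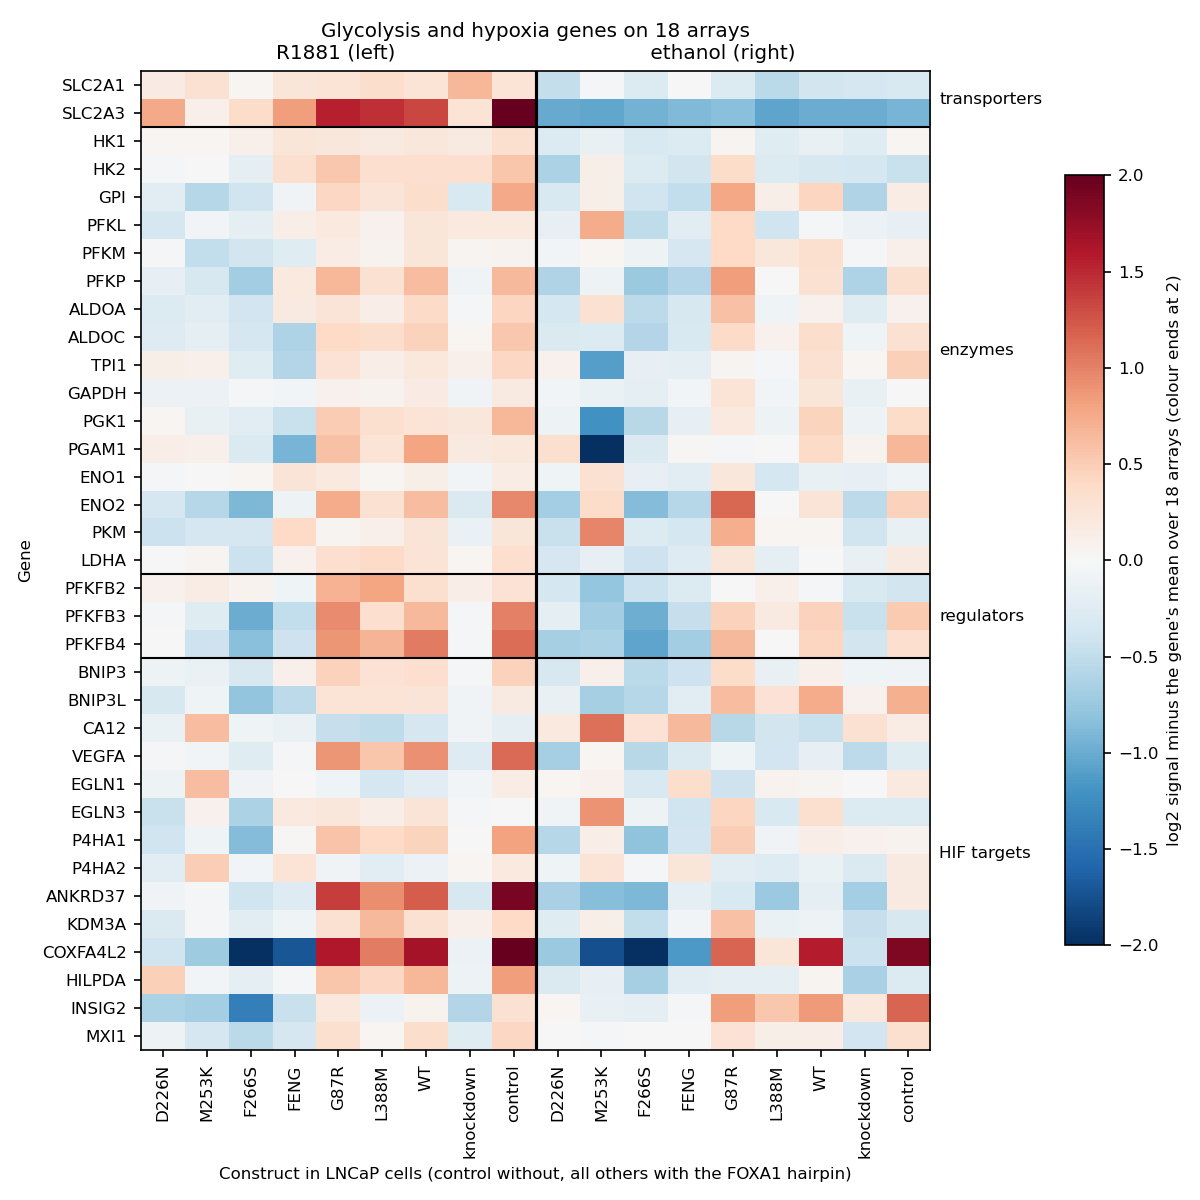
Log2 signal of the 35 measured genes on 18 arrays, each as its distance from the gene's mean over all arrays, with R1881 arrays on the left, ethanol arrays on the right and 1 column per construct. COXFA4L2 is dark blue in F266S (5.66 with R1881 and 6.14 with ethanol) and dark red in control cells (10.59 and 10.04), and SLC2A3 separates the 2 treatments in every construct.

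The first comparison asks how the genes responded to R1881 over all 9 constructs. Both glucose transporters and all 3 measured PFKFB regulators rose, while most enzymes did not pass the test. In the additive fit of construct and treatment (limma, Benjamini-Hochberg over all 11590 genes), 11 of 35 members were higher with R1881, where 5.88% of all genes were, and 2 were lower, where 7.58% were. The median difference of the members was 0.20, against -0.02 over all genes. In a bulk culture, fewer cells expressing a gene and less of its RNA per cell cannot be told apart.

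SLC2A3, the high-affinity glucose transporter GLUT3, ranged from 5.29 through a median of 6.02 to 7.22 with R1881, against 4.13, 4.20 and 4.36 with ethanol. The groups did not overlap, and the probe was detected on 9 of 9 R1881 arrays and on 0 of 9 ethanol arrays. It is at least 2.48-fold higher with R1881, measured against the lowest detected signals (limma adjusted p = 1.31e-05). SLC2A3 passed the detection filter through its R1881 arrays alone, so its place among the 11 higher members is no support for them. The size of its log2 difference follows the background handling: it was 1.93 here, 1.03 with an offset of 50 and 0.815 with no background correction, and these lower values fall under the bound. A probe for SLC2A3 may also take up RNA of SLC2A14, a near-identical copy. SLC2A1, the basal transporter GLUT1, ranged from 8.83 through 9.07 to 9.46 with R1881, against 8.25, 8.48 and 8.80 with ethanol. Again no array of one group reached the other, and the difference was 0.58 ± 0.085 (adjusted p = 0.000536).

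Among the 16 enzymes 3 rose, and 0 fell. HK1 and HK2 catalyse the first step, and HK2 is the inducible form. HK2 ranged from 7.01 through 7.54 to 7.76 with R1881, against 6.57, 6.88 and 7.58 with ethanol. The groups overlapped through the G87R and M253K ethanol arrays (7.58 and 7.32), and the difference was 0.49 ± 0.11 (adjusted p = 0.00870). HK1 was 0.34 ± 0.058 higher (adjusted p = 0.00164). LDHA, which makes lactate, was 0.24 ± 0.068 higher (adjusted p = 0.0309). The remaining 13 enzymes had differences between -0.12 (PFKM) and 0.27 (PGK1), and for ALDOA another bright probe gave 0.66 where the probe used gave 0.10, so its response depends on the probe.

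All 3 measured PFKFB genes rose. PFKFB2, the isoform known from heart, ranged from 5.29 through 5.52 to 6.16 with R1881, against 4.60, 5.07 and 5.47 with ethanol, a difference of 0.54 ± 0.077 (adjusted p = 0.000399). The ranges overlapped, yet PFKFB2 was higher with R1881 in 9 of 9 constructs, by 0.19 (FENG) to 0.92 (M253K). PFKFB4 was 0.44 ± 0.079 higher (adjusted p = 0.00227), also in 9 of 9 constructs. PFKFB3 was 0.25 ± 0.074 higher (adjusted p = 0.0370), in 7 of 9.

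Of the 14 HIF targets 3 rose and 2 fell. VEGFA, the angiogenic growth factor, ranged from 7.72 through 7.96 to 9.11 with R1881, against 7.31, 7.69 and 8.02 with ethanol, a difference of 0.64 ± 0.14 (adjusted p = 0.00678). ANKRD37, an ankyrin-repeat protein gene known as a HIF target, ranged from 7.55 through 7.92 to 9.84, against 7.05, 7.29 and 8.12, a difference of 0.97 ± 0.19 (adjusted p = 0.00353). For both genes the ranges overlap, and the high R1881 values came from only some constructs. HILPDA, a lipid droplet protein that slows the breakdown of stored fat, ranged from 7.85 through 8.43 to 8.86 with R1881, against 7.36, 7.80 and 8.08 with ethanol (0.57 ± 0.095, adjusted p = 0.00127).

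INSIG2, which holds back the activation of sterol synthesis, was the member that fell most. It ranged from 7.08 through 8.01 to 8.76 with R1881, against 8.26, 8.66 and 9.61 with ethanol, a difference of -0.73 ± 0.077 (adjusted p = 4.49e-05). It was lower with R1881 in all 9 constructs, with differences from -1.18 (F266S) to -0.40 (FENG). CA12, a membrane carbonic anhydrase, also fell (-0.29 ± 0.089, adjusted p = 0.0486). The mitophagy receptors BNIP3 (0.24) and BNIP3L (-0.18), the prolyl hydroxylases EGLN1 (-0.02) and EGLN3 (-0.05) and COXFA4L2 (0.28) did not pass the test.

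Higher values with R1881 in every one of the 9 constructs were seen for 6 members (SLC2A1, SLC2A3, HK1, PFKFB2, PFKFB4 and HILPDA), where 3.75% of all genes showed this, and lower values in every one for INSIG2 alone, where 5.18% did. SLC2A3 passed the detection filter through its R1881 arrays alone, so its place among these 6 is no support for them. The calls of PFKFB3, LDHA and CA12 were lost in 7, 6 and 7 of the 9 fits that each left out 1 ethanol array, and also without the 3 arrays. Without the M253K ethanol and FENG R1881 arrays 13 members were called, 11 of them among the first 13, and 2156 of all genes were, against 1560 with all arrays. Without the 3 arrays 16 members and 1933 genes were called, 10 of the members among the 13, and PFKP, ALDOA, ENO2, BNIP3, BNIP3L and KDM3A were added.

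**Figure D2:**
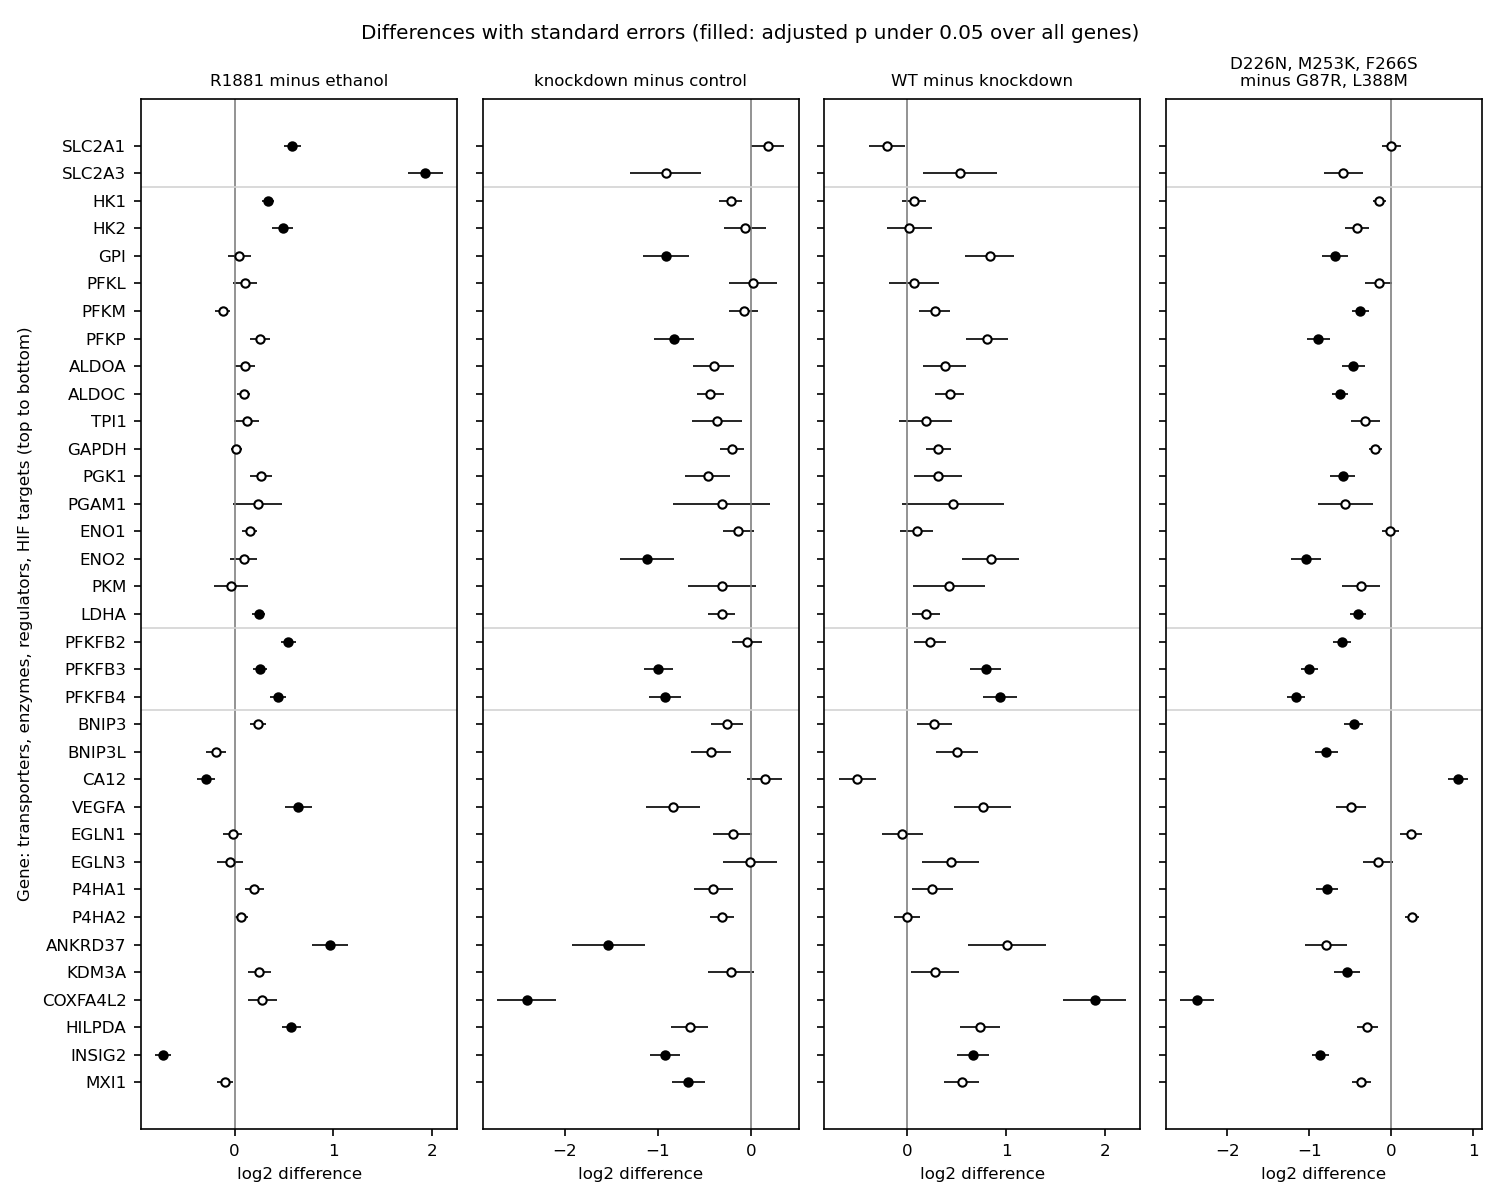
Log2 differences with their standard errors for the 35 genes in 4 comparisons, with genes in the same order in each panel and filled points for adjusted p under 0.05 over all genes. With R1881 the filled points include both transporters and all 3 PFKFB genes. In the knockdown and forkhead panels 32 of 35 points each lie below 0, where 53.4% and 53.1% of all genes do.

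The second comparison asks what changed when FOXA1 was knocked down. The enzymes GPI, PFKP and ENO2, the regulators PFKFB3 and PFKFB4 and 4 HIF targets fell, and 0 members rose. In knockdown cells against control cells 9 of 35 members were lower, where 3.74% of all genes were, and 0 were higher, where 4.56% were. Of the 35 differences 32 were below 0, where 53.4% of all genes were, with a median of -0.37, against -0.02 over all genes. The control R1881 array was the lowest or highest of its 9 for 32% of all genes and the highest for 20 of the 35 members. The members' median difference was -0.37 between the R1881 arrays and -0.33 between the ethanol arrays.

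COXFA4L2, also written NDUFA4L2, encodes a mitochondrial protein known to damp respiration in low oxygen, and it had the largest fall. Knockdown cells read 8.05 with R1881 and 7.75 with ethanol, against 10.59 and 10.04 in control cells. The arrays of the 2 lines lay far apart under both treatments, and the difference was -2.41 ± 0.32 (SE, n = 2 arrays each, adjusted p = 0.000361), or 5.32-fold lower.

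Both regulators PFKFB3 and PFKFB4, which set the signalling sugar that drives phosphofructokinase, fell. PFKFB3 read 8.16 and 7.76 (R1881, ethanol) in knockdown cells, against 9.20 and 8.72 in control cells, a difference of -0.998 ± 0.16 (limma adjusted p = 0.00143). Its other, dimmer probe gave -0.42. PFKFB4 read 9.04 and 8.71 in knockdown cells, against 10.19 and 9.41 in control cells, a difference of -0.92 ± 0.17 (adjusted p = 0.00414). For PFKFB2 the difference was -0.04 ± 0.16.

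Among the enzymes 3 of 16 fell, and 15 of 16 differences were below 0, where 53.4% of all genes were. GPI, which converts glucose phosphate to fructose phosphate, read 10.06 and 9.77 in knockdown cells, against 11.13 and 10.52 in control cells (-0.91 ± 0.25, adjusted p = 0.0380). PFKP, the platelet form of phosphofructokinase, read 9.38 and 8.83 in knockdown cells, against 10.09 and 9.77 in control cells (-0.83 ± 0.21, adjusted p = 0.0302). ENO2, the neuronal enolase, read 7.55 and 7.31 in knockdown cells, against 8.79 and 8.30 in control cells (-1.12 ± 0.29, adjusted p = 0.0305). For all 3 the arrays of the lines did not overlap. The very bright enzymes GAPDH (-0.20), ENO1 (-0.14) and LDHA (-0.32) did not pass the test, and neither did the other phosphofructokinases PFKL (0.02) and PFKM (-0.08). PKM did not pass at -0.31, and its dimmer probes gave -0.64 and -0.59. The dimmer probes of HK1 and HK2 gave 0.32 and 0.03, where the probes used gave -0.22 and -0.06.

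INSIG2 read 7.86 and 8.66 (R1881, ethanol) in knockdown cells, against 8.76 and 9.61 in control cells (-0.92 ± 0.16, adjusted p = 0.00345). MXI1, an antagonist of MYC, fell (-0.68 ± 0.18, adjusted p = 0.0334). ANKRD37 read 7.63 and 7.26 in knockdown cells, against 9.84 and 8.12 in control cells (-1.53 ± 0.39, adjusted p = 0.0299). Its knockdown difference was -2.21 between the R1881 arrays and -0.85 between the ethanol arrays.

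SLC2A3 and VEGFA did not pass the knockdown test, and their values differed between treatments. In the additive fit such differences enter the standard error. It was 0.38 for SLC2A3 and 0.29 for VEGFA, against a median of 0.184 over all genes. SLC2A3 differed by -1.77 between the R1881 arrays and by -0.07 between the ethanol arrays, on which it was not well above background. VEGFA differed by -1.39 between the R1881 arrays and by -0.29 between the ethanol arrays. SLC2A1 differed by 0.39 and -0.03.

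With 2 arrays in each line, the calls of COXFA4L2, PFKFB3 and INSIG2 remained in every fit that left out 1 of the 4 arrays, while those of ENO2, PFKP and MXI1 were lost in all 4 such fits, those of GPI and ANKRD37 in 3 and that of PFKFB4 in 2. Without the control R1881 array the difference was -0.595 for GPI (adjusted p = 0.357) and -1.11 for ANKRD37 (adjusted p = 0.293). Leaving out the control R1881 or the knockdown R1881 array left 3 members called each, and leaving out the knockdown ethanol array left 4. Without the M253K ethanol and FENG R1881 arrays, which belong to other lines, 12 members and 1613 genes were called, and without the 3 arrays 14 members and 1802 genes were, against 9 and 962 with all arrays.

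The third comparison asks whether wild-type FOXA1, put back into hairpin cells, raised these genes. It shares the knockdown arrays with the second, so the 2 directions are not independent. In WT cells against knockdown cells 4 members were higher, where 2.03% of all genes were, and 0 were lower, where 2.6% were. COXFA4L2 read 9.84 with R1881 and 9.75 with ethanol in WT cells, against 8.05 and 7.75 in knockdown cells (1.90 ± 0.32, adjusted p = 0.00358). PFKFB4 read 10.12 and 9.51 in WT cells, against 9.04 and 8.71 in knockdown cells (0.94 ± 0.17, adjusted p = 0.00569). Control cells, which carry no hairpin, read 10.59 and 10.04 for COXFA4L2 and 10.19 and 9.41 for PFKFB4.

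PFKFB3 read 8.85 and 8.66 in WT cells, against 8.16 and 7.76 in knockdown cells (0.79 ± 0.16, limma adjusted p = 0.0103). Its other, dimmer probe gave 0.13, and with the mean of its kept probes the call was lost (0.46, limma adjusted p = 0.0548). INSIG2 read 8.53 and 9.31 in WT cells, against 7.86 and 8.66 in knockdown cells (0.66 ± 0.16, adjusted p = 0.0376). The WT and knockdown lines of PFKFB3 did not overlap, while for INSIG2 the knockdown ethanol array lay above the WT R1881 array. All 16 enzymes had differences above 0, where 46.2% of all genes were below 0. PFKP was at 0.80 ± 0.21 (limma adjusted p = 0.0531) and GPI at 0.83 ± 0.25 (limma adjusted p = 0.0848), and 0 of the 16 enzymes passed. Each of the 4 calls was lost when some single array was left out: COXFA4L2 without the WT ethanol array (adjusted p = 0.0563), PFKFB4 without the knockdown R1881 or the WT R1881 array (0.0669 and 0.0876), PFKFB3 without the knockdown ethanol, WT ethanol or WT R1881 array, and INSIG2 without any 1 of the 4. The number called was then 1 or 2, and it was 10 without the M253K ethanol and FENG R1881 arrays and also without the 3 arrays, where 932 and 1031 of all genes were called, against 536 with all arrays.

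**Figure D3:**
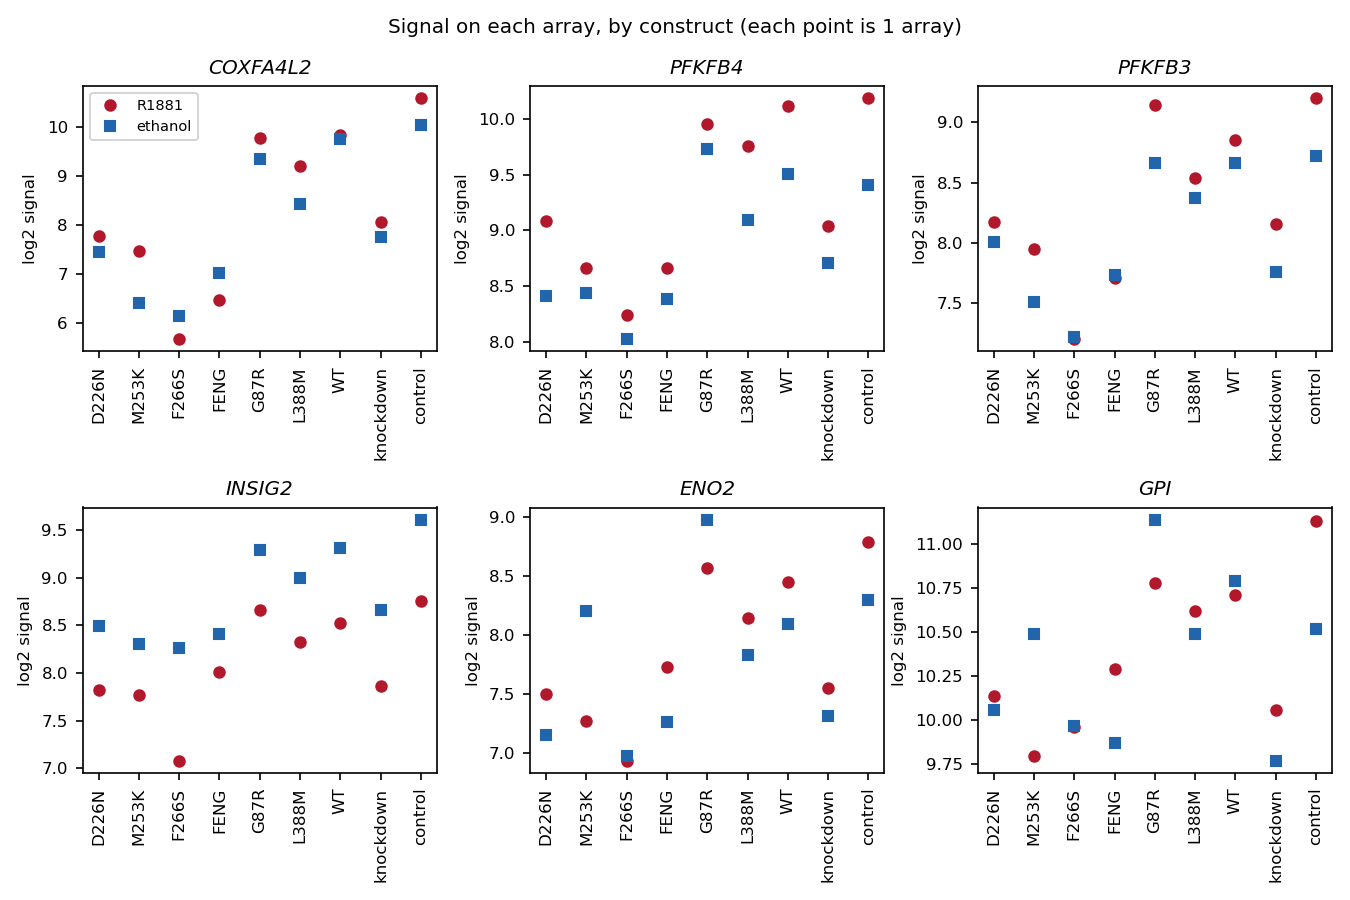
Log2 signal of 6 members on each array by construct, R1881 as circles and ethanol as squares, 1 array per point. For COXFA4L2 the 6 arrays of D226N, M253K and F266S lie at or below 7.78 and the 4 arrays of G87R and L388M at or above 8.42, and GPI and ENO2 are high on the M253K ethanol array (10.49 and 8.20).

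The fourth comparison asks whether mutants in the forkhead domain differed from mutants outside it, all in hairpin cells, and it shares no array with the knockdown comparison. In D226N, M253K and F266S (6 arrays) against G87R and L388M (4 arrays), 17 of 35 members were lower, where 5.51% of all genes were, and 1 was higher, where 7.19% were. When arrays were scaled by their medians instead of by quantiles, 11 were lower and 1 was higher, and 572 of 771 called genes overall were higher, against 833 of 1472 with quantile normalization. The members' median difference was -0.46, against -0.02 over all genes. For 9 members all 6 arrays of the forkhead mutants lay below all 4 others, where 3.51% of all genes did so.

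COXFA4L2 read 7.78, 7.46 and 5.66 with R1881 and 7.44, 6.41 and 6.14 with ethanol in D226N, M253K and F266S, against 9.78 and 9.20 with R1881 and 9.34 and 8.42 with ethanol in G87R and L388M. No array of one class reached the other, and the difference was -2.37 ± 0.20 (SE, adjusted p = 7.13e-06), or 5.17-fold lower.

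All 3 regulators fell. PFKFB4 read 9.08, 8.66 and 8.24 with R1881 and 8.41, 8.44 and 8.02 with ethanol in D226N, M253K and F266S, against 9.96, 9.76, 9.73 and 9.09 in G87R and L388M (-1.16 ± 0.11, adjusted p = 1.41e-05). The classes did not overlap, although the D226N R1881 array (9.08) lay just under the L388M ethanol array (9.09). PFKFB3 read 8.17, 7.95 and 7.20 with R1881 and 8.01, 7.51 and 7.22 with ethanol in the forkhead mutants, against 9.14, 8.54, 8.66 and 8.37 in G87R and L388M (-1.0 ± 0.10, limma adjusted p = 2.74e-05). Its other, dimmer probe gave -0.62. PFKFB2 fell, with a difference of -0.60 ± 0.10 (adjusted p = 0.00224), but its other probe gave -0.01.

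Of the enzymes 8 of 16 fell: PFKP, ENO2, GPI, ALDOC, PGK1, ALDOA, LDHA and PFKM. LDHA makes lactate and the others catalyse steps between glucose phosphate and pyruvate. PFKP read 9.28, 9.13 and 8.75 with R1881 and 8.85, 9.35 and 8.71 with ethanol in D226N, M253K and F266S, against 10.11 and 9.76 with R1881 and 10.29 and 9.45 with ethanol in G87R and L388M (-0.89 ± 0.14, adjusted p = 0.000984). ENO2 read 7.50, 7.27 and 6.93 with R1881 and 7.15, 8.20 and 6.97 with ethanol in D226N, M253K and F266S, against 8.57, 8.14, 8.98 and 7.83 in G87R and L388M (-1.04 ± 0.19, adjusted p = 0.00274). Only the M253K ethanol array, at 8.20, reached into the range of the other class. ALDOC, the brain-type aldolase, fell with no overlap (-0.63 ± 0.095, adjusted p = 0.000835). The remaining 8 enzymes had differences from -0.01 (ENO1) to -0.56 (PGAM1) with the probes used and did not pass. For PKM the probe used gave -0.37, and its dimmer probes, detected on 18 arrays, gave -0.78 and -0.66. The dimmer probes of HK1 and HK2 gave 0.03 and 0.09, where the probes used gave -0.15 and -0.42.

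Of the 14 HIF targets 6 fell and 1 rose. BNIP3L, a receptor that marks mitochondria for degradation, read 9.77, 10.01 and 9.30 with R1881 and 9.95, 9.44 and 9.52 with ethanol in the forkhead mutants, against 10.37, 10.37, 10.71 and 10.38 in G87R and L388M (-0.79 ± 0.14, adjusted p = 0.00227). P4HA1, a collagen prolyl hydroxylase subunit, fell (-0.78 ± 0.13, adjusted p = 0.00185). INSIG2 read 7.82, 7.77 and 7.08 with R1881 and 8.49, 8.31 and 8.26 with ethanol in the forkhead mutants, against 8.66 and 8.33 with R1881 and 9.29 and 9.00 with ethanol in G87R and L388M (-0.87 ± 0.11, adjusted p = 0.000148). Within each treatment the classes did not overlap for INSIG2. KDM3A, a histone demethylase, and BNIP3 also fell (-0.54 and -0.46).

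CA12 went the other way. It read 8.90, 9.65 and 8.94 with R1881 and 9.23, 10.13 and 9.31 with ethanol in D226N, M253K and F266S, against 8.56, 8.52, 8.47 and 8.66 in G87R and L388M, a difference of 0.81 ± 0.12 (adjusted p = 0.000835). All 6 forkhead-mutant arrays lay above all 4 others. Its difference in the knockdown, 0.14 ± 0.19, did not pass.

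In this class comparison the calls of PFKP, PFKFB2, PFKFB3, PFKFB4, ALDOC, ENO2, BNIP3L, CA12, P4HA1, COXFA4L2 and INSIG2 remained in each of the 10 fits that left out 1 array. Without the G87R ethanol array or without the L388M R1881 array these 11 were the members called, and without the M253K ethanol array 25 were called. Without the M253K ethanol and FENG R1881 arrays 26 members and 2619 genes were called, and without the 3 arrays 23 members and 1874 genes were, against 18 and 1472 with all arrays.

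Lower values in both the knockdown and the forkhead class were called for 7 members (GPI, PFKP, PFKFB3, PFKFB4, ENO2, COXFA4L2 and INSIG2), where 1.66% of all genes were lower in both. They make up 7 of the 9 that fell in the knockdown and 7 of the 17 that fell in the class. With median scaling the knockdown calls of GPI, PFKP and ENO2 were lost (adjusted p = 0.0825, 0.0999 and 0.0527), as was the class call of GPI, and without either R1881 array of the knockdown comparison 3 members were called there. The other pair of the knockdown set, ANKRD37 and MXI1, had class differences of -0.80 ± 0.25 (adjusted p = 0.0579) and -0.37 ± 0.11 (adjusted p = 0.0538).

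Each mutant, and FENG, was also set against WT in 6 comparisons that share the WT arrays. F266S had 11 members lower (background 2.04%), M253K had 8 lower and 2 higher (backgrounds 4.62% and 8.5%), FENG had 6 lower (2.2%) and D226N had 4 lower (0.406%). With median scaling M253K had 10 lower and 1 higher, and over all genes 424 of 956 calls were higher, against 985 of 1521 with quantile normalization. PFKFB4, COXFA4L2 and INSIG2 were called lower in all 4 of these constructs. INSIG2 lost its call in D226N in all 4 fits that left out 1 array and in FENG in 3 of 4, and in both with median scaling. PFKFB4 and COXFA4L2 each lost their call in D226N in 2 of 4 such fits, and in M253K, FENG and F266S in 0 of 4.

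For COXFA4L2 the mean was 5.90 in F266S, 6.75 in FENG, 6.94 in M253K and 7.61 in D226N, against 9.80 in WT. The differences were -3.90, -3.05, -2.86 and -2.19, each ± 0.32. F266S was the lowest of the 9 constructs for 17 of the 35 members on the R1881 arrays and for 17 on the ethanol arrays. Over all genes F266S was the lowest or highest for 17.6% on the R1881 arrays and for 15% on the ethanol arrays. With R1881 and with ethanol the COXFA4L2 probe read below the knockdown line (8.05 and 7.75) in F266S (5.66 and 6.14), FENG (6.47 and 7.02), M253K (7.46 and 6.41) and D226N (7.78 and 7.44). Without the M253K ethanol and FENG R1881 arrays F266S had 19 members called and D226N 9, where 1211 and 334 of all genes were. Without the 3 arrays F266S had 21 and D226N 10, where 1323 and 347 of all genes were. With all arrays 647 and 163 of all genes were called. M253K and FENG have 1 array each in these fits, and their counts are not given. With a single array left out, F266S had 7 called without its ethanol array, 6 without the WT ethanol array and 5 without either R1881 array. M253K had 5 without the WT ethanol array, and FENG had 3 without the WT R1881 array. D226N had 0 without its ethanol array, 2 without its R1881 array and 1 without either WT array.

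No member was called in G87R or L388M against WT. Over all genes limma called 0% in G87R and 0.00863% in L388M, and at an unadjusted p under 0.05 there were 0 members and 192 genes for G87R and 2 members and 248 genes for L388M. Those 2 members were COXFA4L2, at 8.81 in L388M against 9.80 in WT (-0.99 ± 0.32, unadjusted p = 0.00837, adjusted p = 1.0), and PFKFB4, at 9.42 against 9.82 (-0.39 ± 0.17, adjusted p = 1.0). Of the 35 differences 31 were below 0 in L388M, with a median of -0.19. Over all genes 48.3% were below 0 there, with a median of 0.007. In G87R 12 of the 35 were below 0, with a median of 0.055, against 44.9% of all genes, with a median of 0.021.

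**Figure D4:**
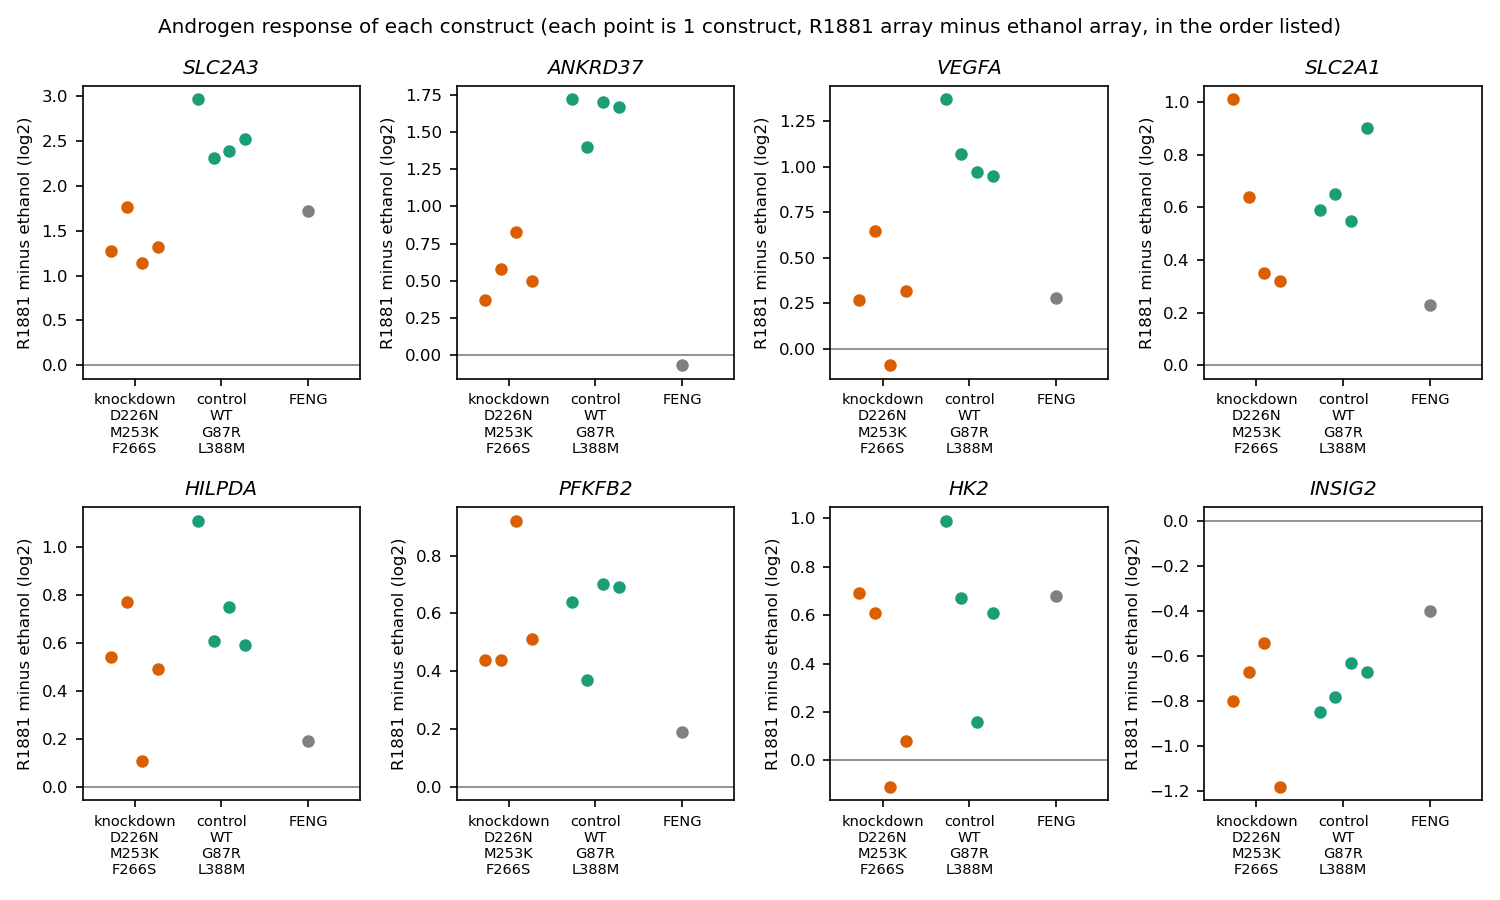
R1881 array minus ethanol array (log2) for 8 members in each construct, with the knockdown, D226N, M253K and F266S lines on the left, the control, WT, G87R and L388M lines in the middle and FENG on the right. For SLC2A3, ANKRD37 and VEGFA all 4 points on the left lie below all 4 in the middle, and for INSIG2 the points are mixed.

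The last comparison asks whether the response to R1881 itself depended on FOXA1. The knockdown, D226N, M253K and F266S lines were set against the control, WT, G87R and L388M lines, with 1 response per line. FENG stayed out because the labels do not define it. No gene of the 11590 was called (0%), and at an unadjusted p under 0.05 there were 5 members and 533 genes.

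SLC2A3 responded by 1.27, 1.76, 1.14 and 1.32 in the knockdown, D226N, M253K and F266S lines, against 2.96, 2.31, 2.39 and 2.52 in the control, WT, G87R and L388M lines. The 2 sets of lines did not overlap. The difference of -1.18 ± 0.19 (SE, n = 4 lines each) had a limma adjusted p of 0.114. Because SLC2A3 was not well above background on any ethanol array, its responses are measured from a floor, and the lines are told apart by their R1881 arrays, at 5.29 to 5.94 against 6.52 to 7.22.

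ANKRD37 responded by 0.37, 0.58, 0.83 and 0.50 in the knockdown, D226N, M253K and F266S lines, against 1.72, 1.40, 1.70 and 1.67 in the control, WT, G87R and L388M lines (-1.05 ± 0.14, limma adjusted p = 0.0888). VEGFA responded by 0.27, 0.65, -0.09 and 0.32, against 1.37, 1.07, 0.97 and 0.95 in the same order of lines (-0.80 ± 0.18, limma adjusted p = 0.476). In both genes the sets of lines did not overlap. These 3 were the only members whose 4 depleted or forkhead-mutant lines all lay below the 4 others, where 2% of all genes did so, and 0 members lay the other way round, where 1.28% did. SLC2A3 passed the detection filter through its R1881 arrays alone. Its place among these 3, or among the members at an unadjusted p under 0.05, is therefore no support for them. FENG, left out of the test, responded by 1.72 for SLC2A3, -0.07 for ANKRD37 and 0.28 for VEGFA.

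ANKRD37 was called when no background was corrected, with an offset of 50, on the authors' own processed values, without M253K, and without the M253K ethanol and FENG R1881 arrays. The mean response of the same 2 sets of lines was -0.80 against -0.73 for INSIG2, 0.58 against 0.60 for PFKFB2 and 0.32 against 0.31 for HK1, with differences of -0.06 ± 0.16, -0.02 ± 0.15 and 0.01 ± 0.13. SLC2A1 responded by 0.58 against 0.67 (-0.09 ± 0.17). A p above the threshold does not show that these responses were alike.

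Other genes of the pathway were read from lists chosen with earlier results of these data known. Of 10 measured genes of the HIF machinery, 3 rose in the knockdown (HIF1A, EPAS1 and CITED2), where 4.56% of all genes did, and 0 fell, where 3.74% did. HIF1A, the oxygen-sensitive subunit itself, read 7.55 with R1881 and 7.30 with ethanol in knockdown cells, against 6.65 and 6.10 in control cells (1.05 ± 0.17, adjusted p = 0.00211). It was also 0.94 ± 0.11 higher in the forkhead mutants than in G87R and L388M (adjusted p = 0.000113). So in these 2 comparisons its transcript was higher where COXFA4L2, PFKFB3 and PFKFB4 were lower. With WT its difference was -0.66 ± 0.17 (limma adjusted p = 0.0513). With R1881, HIF1A (0.36), PFKFB3 (0.25) and PFKFB4 (0.44) were all higher.

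EPAS1, which encodes the second alpha subunit, read 6.93 and 5.99 in knockdown cells, against 4.80 and 5.18 in control cells (1.47 ± 0.35, adjusted p = 0.0210). Its difference in the forkhead class, 0.72 ± 0.23, did not pass (adjusted p = 0.0557). In the androgen response HIF1A and EGLN2, an oxygen sensor, were 0.36 higher each.

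Of 14 measured genes of pyruvate and lactate handling, LDHB, the other lactate dehydrogenase subunit, fell in the knockdown (-0.67 ± 0.14, adjusted p = 0.00899), rose with WT (0.68 ± 0.14, adjusted p = 0.0133) and fell in the forkhead class (-0.68 ± 0.090, adjusted p = 0.000308). PDK3, a kinase that inactivates pyruvate dehydrogenase, fell in the forkhead class (-0.94 ± 0.13) along with MPC2 (-0.35 ± 0.084). Of the 14 genes 3 fell there, where 5.51% of all genes did, and 0 rose, where 7.19% did. MPC2, a subunit of the mitochondrial pyruvate carrier, was the only one called in the androgen response, at 1.04 ± 0.061 (limma adjusted p = 5e-07). Over all genes 5.88% rose and 7.58% fell with R1881.

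Of 10 further transport and glycolysis genes, the transporter SLC2A12 was called in the knockdown (-1.11 ± 0.17) and with WT (1.12 ± 0.17). In the forkhead class SLC2A6 (0.65) and BPGM (0.50) rose, where 7.19% of all genes did, and PGM1 (-0.46) fell, where 5.51% did. Of 6 pentose phosphate genes, PGD (0.54 ± 0.090) and TALDO1 (0.28 ± 0.082) rose in the forkhead class, where 7.19% of all genes did, and 0 were called in the knockdown or the androgen response.

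Of 20 further HIF targets, 2 rose and 1 fell with R1881, 3 rose and 2 fell in the knockdown, and 2 rose and 6 fell in the forkhead class. Over all genes 5.88% rose and 7.58% fell with R1881, 4.56% and 3.74% did in the knockdown, and 7.19% and 5.51% did in the class. NDRG1, a differentiation-related gene, was 1.76 ± 0.10 higher with R1881 (adjusted p = 5e-07) and fell in the forkhead mutants (-0.88 ± 0.14). ADM, the vasodilator adrenomedullin, read 6.30 with R1881 and 6.58 with ethanol in knockdown cells, against 7.05 and 7.86 in control cells (-1.02 ± 0.16). In the forkhead class it was 0.90 ± 0.10 higher, so that 2 comparisons that share no array gave it opposite signs. HMOX1, which breaks down heme, rose in both (0.81 and 0.62). TXNIP, a glucose-responsive brake on glucose uptake, was lower with R1881 (-0.24 ± 0.071), in the knockdown (-0.82 ± 0.15) and in the forkhead class (-0.49 ± 0.098). ARRDC4, the other gene listed with it, was not called in any of the 3.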

How the data were processed

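Total RNA of 18 LNCaP arrays was biotin-labelled. Per the file headers, the authors deposited, for 47303 probes on every array, the raw intensity with its detection p-value. Their processed intensity (lowest -15.4, median 5.2) comes in another file, and of its steps the submitters' processing notes name GenomeStudio alone. No slide or scan date is given, so neither was tested.

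The raw intensity was corrected with limma 3.58.1's neqc (R 4.3.3, offset 16, background from the detection p-values), quantile normalized and put on the log2 scale. Probes with a detection p-value under 0.01 on at least 2 arrays were kept (20117). Of all probes 30102 had 1 gene in the platform annotation, 8 several and 17193 none, and symbols were updated through RefSeq's GRCh38.p14 table. The brightest kept probe stood for each gene, which left 11590 genes. Values of different genes come from different probes and are not compared as levels. Near-identical copies (such as PGAM4 for PGAM1 and the GAPDH pseudogenes) may add to a probe's signal.

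With 1 array per condition, limma fitted construct and treatment additively over 18 arrays (8 residual degrees of freedom). All differences are log2 with their standard error, adjusted by Benjamini-Hochberg over all genes, with a threshold of 0.05. The difference in response was fitted on 1 R1881 minus ethanol value per construct. The "at least" fold sets the R1881 mean against a floor, taken on each ethanol array as its lowest detected signal or the probe's own signal where that is higher. Precision is limited by how few arrays there are.

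The members, gene lists and tests were chosen with earlier results of these data known. Full values are given for members called in a comparison, at most the 8 with the largest difference in each, and the rest by counts and ranges. Columns of other samples numbered 0. The alternative that keeps the G87R ethanol array was added after seeing the data. Alternatives covered normalization, background, offset, the authors' values, probe filters, the probe of a gene, the prior, the construct term and arrays left out.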

Additional observations from a re-analysis of the deposited data

Results flagged for a closer look

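For 4 of the 35 members, 1 construct's R1881 minus ethanol difference stood apart from the other 8 by Dixon's test over the 9 constructs, which by chance happens in about 1 group of 20. In M253K, PGAM1 differed by 2.28 (others -0.95 to 0.63), TPI1 by 1.20 (others -0.40 to 0.23) and BNIP3L by 0.57 (others -0.54 to -0.01). On the M253K ethanol array PGAM1 and TPI1 were the lowest of the 18. In FENG, ALDOC differed by -0.32 (others 0.01 to 0.27), and the FENG R1881 array was the lowest of the 9 R1881 arrays for ALDOC (10.32). The part of these 2 arrays in those values was not tested.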

How the results depend on the processing

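Of the fully described results under alternative settings, 174 with 1 array left out and 285 with another setting kept their direction and side of the threshold, 26 and 9 kept their direction but were no longer past it, and 0 changed sign. Median scaling called 5 members in the knockdown and 2 in D226N, and moved the median of all genes to -0.106 in the knockdown, 0.171 with WT, -0.116 in M253K, -0.103 in F266S and -0.208 in L388M. No background correction, an offset of 50 and the authors' values each called 1 member (ANKRD37) in the response difference. The mean of all kept probes called 10 in FENG, and treatment without a construct term called 8 in the androgen response. Without the M253K ethanol, FENG R1881 and G87R ethanol arrays 14 members were called in the knockdown, 10 with WT, 10 in D226N, 16 in M253K, 11 in FENG and 21 in F266S. The setting without the first 2 of these arrays was added after seeing the data. It called 10 members with WT, 9 in D226N, 19 in F266S and 1 (ANKRD37) in the response difference. With 1 array left out the counts ran from 3 to 7 in the knockdown, 1 to 2 with WT, 11 to 25 in the forkhead class, 0 to 2 in D226N, 5 to 13 in M253K, 3 to 6 in FENG, 5 to 7 in F266S and 0 to 1 in the response difference (without M253K). Over all genes, the calls numbered 533 with median scaling and 1802 without those 3 arrays in the knockdown, against 962 with the settings of the report. In the same order they were 326 and 1031 with WT, against 536, 89 and 347 in D226N, against 163, and 335 and 1323 in F266S, against 647. Median scaling also gave 941 in the androgen response (against 1560), 771 in the forkhead class (against 1472), 956 in M253K (against 1521) and 328 in FENG (against 687), and treatment alone gave 856 in the androgen response. The response difference called 4 genes without background correction or with an offset of 50 and 5 with the authors' values or median scaling, against 0. Without the M253K ethanol and FENG R1881 arrays the all-gene calls numbered 1613 in the knockdown, 932 with WT, 2619 in the forkhead class, 334 in D226N, 1211 in F266S and 2 in the response difference. With 1 array left out, all-gene calls ran from 461 to 563 in the knockdown, 207 to 276 with WT, 845 to 2117 in the forkhead class, 41 to 54 in D226N, 620 to 3204 in M253K (3204 without its R1881 array), 197 to 709 in FENG, 205 to 277 in F266S and 0 to 2 in the response difference. Leaving out 1 array leaves fewer residual degrees of freedom; for the other settings, and wherever counts went up, the cause was not tested. Dim signals limit SLC2A3, detected on 0 of 9 ethanol arrays, PFKFB2, detected on 17 of 18 arrays, and EGLN3, detected on 15. The construct term already pairs the R1881 and ethanol arrays of a line, and the fit without it is the one of treatment alone.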
